A study of Mus musculus with 18 samples.

Results

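The phagocyte NADPH oxidase is the enzyme complex that turns oxygen into superoxide at the phagosome and plasma membrane, and it is described here through 5 of its genes in mouse bone marrow-derived macrophages (BMDMs). The genes were taken by name from a count table of 21734 protein-coding genes: Cybb and Cyba, which encode the membrane subunits gp91phox and p22phox, Ncf1 and Ncf4, which encode the cytosolic subunits p47phox and p40phox, and Rac2, a small GTPase of blood cells that completes the active complex. All 5 passed the filter on low counts, which left 11357 genes.

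The series compared homozygous mice of 3 genotypes at Mir146a, all on a 129/B6 mix background and 6 to 7 months old. WT mice carry the normal gene, KO mice lack miR-146a, and in 3′F mice the mature microRNA keeps its seed while part of its 3′ sequence was exchanged with that of the opposite hairpin strand. Marrow of 3 mice per genotype was grown for 8 to 9 days in 10 ng/ml M-CSF, and separate cultures then received fresh medium alone (resting) or with 1 ng/ml LPS, the bacterial ligand of TLR4, for 16 h. This gave 18 libraries in 6 groups of 3. The change made to the microRNA gene was not checked in these counts of protein-coding genes.

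In the resting phagocyte the oxidase is unassembled. Cybb and Cyba proteins form a heterodimer, cytochrome b558, that carries electrons from NADPH across the membrane, and the cytosolic subunits wait in the cytosol until phosphorylation of Ncf1 and loading of Rac2 with GTP bring them to it. Loss of the complex in patients causes chronic granulomatous disease, and both interferon-γ and bacterial products are known to raise its transcripts in macrophages.

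Total counts per library ran from 4071084 to 19818043. Resting 3′F replicate 3 was the shallowest library, and relative to the other resting 3′F libraries it was shifted by transcript length. Its median deviation from the mean of those libraries, on the log2 scale, was 0.86 over 519 genes with under 1000 bases of exon. Over 3927 genes with over 4000 bases it was −0.25. Resting KO replicate 3 also stood apart, and its gene counts differed from those of its group mates by a chi-square of 114 and 105 per degree of freedom, where those 2 differed by 7.19. All 10 macrophage markers, such as Csf1r, Adgre1 and Lyz2, passed the filter, and their summed level was 32403 to 48569 CPM (counts relative to the TMM-scaled library size) in resting WT and 61201 to 63016 in resting KO. With LPS it was 46108 to 60558 CPM in WT and 71756 to 88508 in KO, and in 3′F it was 43304 to 63460 at rest and 50995 to 61088 with LPS. Most of that sum was Lyz2, with means of 35157 CPM in resting WT and 53931 in resting KO, while the means of Itgam (245 and 150), Cd68 (936 and 867) and Cd63 (537 and 486) were lower in resting KO. The 12 neutrophil markers, genes of the other cell type rich in this oxidase, summed to 41.3 to 55.4 CPM in resting WT, 65.5 to 124 in resting KO, 49.3 to 66.9 in WT with LPS and 63.3 to 98.5 in KO with LPS. In 3′F they summed to 47.6 to 97.9 CPM at rest, which overlaps resting KO, and to 44.4 to 56.4 with LPS. Mmp8 (29.4 and 57.9 CPM in resting WT and KO) and S100a8 (10.5 and 25.3) made up most of it, while S100a9 (5.766 and 3.997) and Mpo (0.67 and 0.09) were lower in resting KO. Ly6g was at 0 in every resting group. The lymphocyte, dendritic cell and mast cell lists stayed at or under 4.68 CPM in every library, and the erythroid and megakaryocyte list was nearly all Pf4. That list was lower in KO without overlap, at 108 to 336 CPM in resting KO against 339 to 493 in resting WT and at 295 to 381 in KO with LPS against 421 to 591 in WT with LPS, and in 3′F it was 348 to 525 at rest and 376 to 421 with LPS. In bulk RNA, more cells of a type and more RNA per cell cannot be told apart, and the part of these marker levels in the results was not tested.

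The genotypes differ in miR-146a, which KO lacks and 3′F carries with a changed 3′ part. Its WT mature form is shown with the seed, bases 2 to 8, in capitals. It lies at chr11:43374435-43374456 on the minus strand of GRCm38.p6, and miR-146b, the other member of the family, lies at chr19:46342790-46342811 on the plus strand and has the same seed (RefSeq sequences).
miR-146a-5p: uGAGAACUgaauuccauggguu
miR-146b-5p: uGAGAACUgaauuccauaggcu

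None of the 5 transcripts holds a 7-base or 8-base match to that seed in its longest annotated 3′ UTR. On the sense strand the 8-base match AGTTCTCA was found in 3.97% of 21659 protein-coding genes with an annotated 3′ UTR. The 7-base match AGTTCTC was found in 10.9% of them and GTTCTCA in 12.1%. The 6mer GTTCTC, which is contained in all of these, was found in 28.8%. The 3′ UTRs searched were 2968 bases long for Cybb, 1693 for Ncf1, 192 for Ncf4 and 105 for Cyba, and held no 6mer. Rac2, with 2324 bases, held the 6mer 3 times, shown with its flanks from the Gencode M21 transcript and the match in capitals.
Rac2 base 399: atctgctcctctGTTCTCcttttt
Rac2 base 1689: gacatatgtgttGTTCTCcacccc
Rac2 base 1961: cacaggtgctgtGTTCTCcaacac

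Cybb was the member with the steepest LPS response, and its resting level differed between KO and WT macrophages. Cybb (ENSMUSG00000015340, chromosome X, 9435252 to 9487771, minus strand, mm10, Gencode M21 as for the genes that follow) encodes the catalytic subunit. In resting WT the 3 libraries held 1338, 1066 and 1590 CPM, and with LPS they held 5663, 5009 and 6206. Resting KO held 2279, 2128 and 3348 CPM, and KO with LPS 6455, 7422 and 7289. Resting 3′F held 1608, 1559 and 1248 CPM, and 3′F with LPS 5911, 6426 and 5456. Every library with LPS lay above every resting library of any genotype, and every resting KO library lay above every resting WT and 3′F library. By mean CPM Cybb ranked 43rd of 11357 genes in resting WT and 10th with LPS, and in KO 21st and 7th.

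LPS raised Cybb by 2.08 ± 0.19 on the log2 scale in WT (SE, 4.22-fold, 95% interval 1.68 to 2.48), by 1.45 ± 0.19 in KO (2.73-fold) and by 2.01 ± 0.19 in 3′F (4.03-fold). Adjusted p values of the edgeR quasi-likelihood test, corrected by Benjamini-Hochberg over all 11357 genes, were 1.1e-06, 2.71e-05 and 1.32e-06. The increase in WT was larger than that of 96.6% of the genes tested. Resting KO exceeded resting WT by 0.96 ± 0.18 (1.94-fold, adjusted p 0.00492). With LPS the KO libraries again lay above all WT libraries, but the difference of 0.33 ± 0.18 did not pass (95% interval −0.06 to 0.71, adjusted p 0.381). The LPS response of KO minus that of WT was −0.63 ± 0.26. Its unadjusted p was 0.0261 and its adjusted p 0.892, so that unequal responses are not shown.

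The resting difference in Cybb leaned in size on resting KO replicate 3. Without that library it was 0.73 and had an adjusted p of 0.0153, and in a fit of the resting WT and KO libraries alone it was 0.94 and had an adjusted p of 0.068. The fit of these groups alone called 396 of 10851 genes, where the reported fit called 1067 of 11357.

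**Figure D1:**
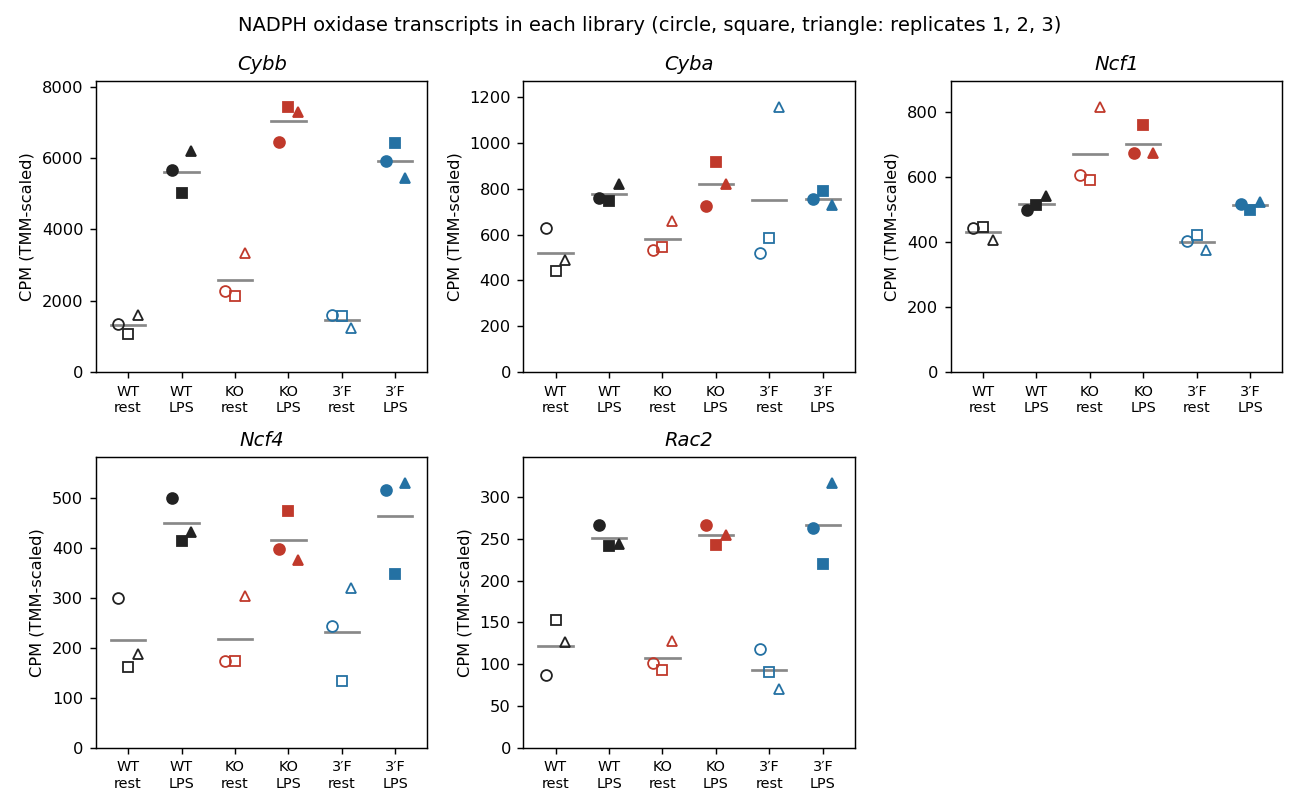
Level of the 5 members in each of the 18 libraries, in TMM-scaled CPM on linear axes that start at 0; symbols are single libraries (open, resting; filled, LPS; circle, square and triangle for replicates 1, 2 and 3) and grey bars are group means. Cybb separates resting from LPS in every genotype, from at most 3348 CPM to at least 5009, resting KO Ncf1 lies at the level of KO with LPS, and 1 resting 3′F library of Cyba, at 1156 CPM, stands above every other library.

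Cyba, the partner of Cybb in cytochrome b558, passed no test in any of the 11 comparisons. Cyba (ENSMUSG00000006519, chromosome 8, 122424776 to 122432930, minus strand) held 629, 442 and 491 CPM in resting WT and 759, 749 and 824 with LPS. It held 533, 547 and 658 CPM in resting KO and 723, 916 and 821 with LPS. In 3′F it held 518, 585 and 1156 CPM at rest and 754, 792 and 728 with LPS. In WT and KO each library with LPS lay above each resting library of the same genotype, and in 3′F the groups overlapped through resting replicate 3.

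The fitted LPS response of Cyba was 0.58 ± 0.23 in WT (adjusted p 0.0685), 0.50 ± 0.23 in KO (0.116) and 0.01 ± 0.23 in 3′F (0.978). Cyba has 744 bases of exon, the shortest of the 5, and thus belongs to the length class in which resting 3′F replicate 3 was shifted upward. Without that library the responses were 0.54 in WT, 0.44 in KO and 0.42 in 3′F, each called with adjusted p of 0.00357, 0.0126 and 0.0379. Over all genes that fit called 3995, 3845 and 3160 of 11433 in these responses. The reported fit called 3240, 3059 and 3546 of 11357. Leaving out resting WT replicate 1 (0.74, adjusted p 0.0446) or resting 3′F replicate 1 (0.58, 0.0391) also brought the WT response past the threshold. The difference between resting KO and WT was 0.15 ± 0.23 (95% interval −0.33 to 0.63, adjusted p 0.749), and with LPS it was 0.08 ± 0.23 (−0.40 to 0.56, 0.915).

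The transcripts of the membrane subunits changed in ratio. Counts per kb of exon put different genes on a common scale, which rests on the annotated exon lengths. On that scale Cybb stood at 0.40 ± 0.09 times Cyba in resting WT and 1.12 ± 0.07 times with LPS (SD, n = 3). In KO the ratio was 0.68 ± 0.09 at rest and 1.34 ± 0.07 with LPS. In 3′F it was 0.35 ± 0.16 at rest, with 0.48, 0.41 and 0.17 in the single libraries, and 1.21 ± 0.05 with LPS. The 0.17 belongs to replicate 3, the length-shifted library, and division by exon length does not remove such a shift. Cyba falls in its short class and Cybb, with 4809 bases of exon, in its long class. All 9 LPS libraries lay above 1 and all 9 resting libraries below it. The resting KO libraries, 0.66, 0.60 and 0.79, lay above the resting WT libraries, 0.33, 0.37 and 0.50, and the KO libraries with LPS, 1.25 to 1.38, above the WT libraries with LPS, 1.03 to 1.17. A ratio shows unequal change of both genes, and it was not tested apart from the fits above.

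**Figure D2:**
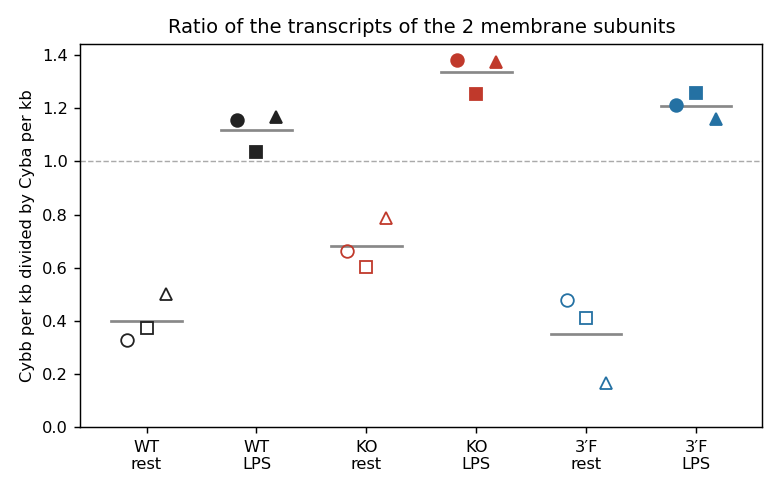
Ratio of Cybb to Cyba in each library, each gene taken as CPM per kb of annotated exon. Symbols are single libraries as labelled by replicate and grey bars are the means of 3. The dashed line marks equal levels on that scale. Resting libraries range from 0.17, in the length-shifted resting 3′F library, to 0.79, and LPS libraries from 1.03 to 1.38.

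Ncf1, the organizer subunit whose phosphorylation starts assembly, set KO apart from both other genotypes at rest, while LPS moved it little. Ncf1 (ENSMUSG00000015950, chromosome 5, 134220053 to 134229625, minus strand) held 442, 445 and 407 CPM in resting WT and 497, 512 and 541 with LPS. In KO it held 608, 590 and 814 CPM at rest and 672, 759 and 675 with LPS. In 3′F it held 404, 421 and 375 CPM at rest and 517, 500 and 522 with LPS. Every KO library, resting or with LPS, lay above every WT and 3′F library, LPS included.

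Resting KO exceeded resting WT by 0.64 ± 0.12 on the log2 scale (1.55-fold, adjusted p 0.0039) and resting 3′F by 0.74 ± 0.12 (1.68-fold, 0.00212). Without resting KO replicate 3 the excess over WT came to 0.47 (0.00826), and in a fit of the resting WT and KO libraries alone to 0.62 (0.0676). This last fit called 396 of 10851 genes. With LPS the excess over WT was 0.44 ± 0.12 (1.36-fold, adjusted p 0.0394) and over 3′F 0.45 ± 0.12 (0.039). These calls with LPS lay close to the threshold. The one against WT was lost in 13 of the 18 fits that left out 1 library, with adjusted p up to 0.176: those without any 1 of the 9 LPS libraries, without resting WT replicate 2 or 3, and without resting 3′F replicate 1 or 2. The one against 3′F was lost in 11 of them, which are the same apart from WT replicates 2 and 3 with LPS. With the replicate number as a block the adjusted p values were 0.0544 and 0.0574, and the size stayed between 0.38 and 0.48 in each of these 18 fits.

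The LPS response of Ncf1 was 0.36 ± 0.12 in 3′F (adjusted p 0.0285), 0.26 ± 0.12 in WT (0.107) and 0.07 ± 0.12 in KO (0.716). The 3′F call was lost when any 1 of the 3 libraries with LPS or resting replicate 1 or 3 was left out, and it had an adjusted p of 0.0675 with the mouse as a block. Leaving out resting KO replicate 3 brought the WT response to an adjusted p of 0.0272. In the WT response that fit called 3774 of 11493 genes, where the reported fit called 3240 of 11357. Neither interaction passed: the response in KO minus that in WT was −0.19 ± 0.16 and that in 3′F minus WT 0.10 ± 0.16, with adjusted p of 1 and 0.979.

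Cybb and Ncf1, the members called between resting KO and WT, and Cyba, which was not called, are shown by sequence. The letters are the 250 bases before their RefSeq start on the gene's own strand (GRCm38.p6, all minus strand). The Cybb window lies inside the Gencode span given above, whose 5′ end is at 9487771, so the RefSeq and Gencode starts of that gene differ. Capitals mark AAANNGAAA on either strand, a core that interferon regulatory factors can bind.
Cybb, chrX:9469325-9469574: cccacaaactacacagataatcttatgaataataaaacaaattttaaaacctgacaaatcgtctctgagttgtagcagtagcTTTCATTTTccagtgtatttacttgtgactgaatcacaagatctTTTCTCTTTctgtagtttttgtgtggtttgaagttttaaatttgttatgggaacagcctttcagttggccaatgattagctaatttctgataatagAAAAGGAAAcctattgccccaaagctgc
Ncf1, chr5:134229626-134229875: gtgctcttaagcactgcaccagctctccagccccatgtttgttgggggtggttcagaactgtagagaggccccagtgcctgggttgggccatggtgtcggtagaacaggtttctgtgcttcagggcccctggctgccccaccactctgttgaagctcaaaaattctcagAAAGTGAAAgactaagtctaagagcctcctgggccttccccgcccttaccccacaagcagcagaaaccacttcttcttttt
Cyba, chr8:122432941-122433190: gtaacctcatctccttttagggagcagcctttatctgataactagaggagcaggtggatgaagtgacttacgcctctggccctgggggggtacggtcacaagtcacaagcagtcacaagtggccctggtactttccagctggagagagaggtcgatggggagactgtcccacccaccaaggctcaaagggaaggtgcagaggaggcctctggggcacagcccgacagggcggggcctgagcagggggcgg

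The AAANNGAAA element occurred 3 times in the Cybb window, with its first base at −168, −124 and −28 from the start, once in Ncf1 at −81 and not in Cyba. Of 32851 RefSeq promoter windows of this length 9.37% hold it at least once. The Cybb window held the AP-1 core TGANTCA at −139 (6.75% of windows) and CCAAT at −56 (33.8%). GAGGAA, a core of PU.1 sites that occurs in 23.3% of windows, was in none of the 3. Letters in this window are a description and not a measured site. The GC content was 34% for Cybb, 54.4% for Ncf1 and 60% for Cyba. Ncf4 and Rac2 are named without a window.

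Ncf4 and Rac2 rose with LPS in all 3 genotypes and passed no test between genotypes. Ncf4 (ENSMUSG00000071715, chromosome 15, 78244801 to 78262580, plus strand) encodes a cytosolic subunit that binds phosphoinositides of the phagosome. It held 299, 162 and 187 CPM in resting WT and 500, 414 and 432 with LPS. In KO it held 174, 173 and 304 CPM at rest and 396, 474 and 375 with LPS. In 3′F it held 244, 134 and 318 CPM at rest and 515, 347 and 529 with LPS. Resting and LPS libraries of a genotype did not overlap, although resting WT replicate 1 and resting KO replicate 3, at 299 and 304, stood above their group mates at 162 to 187.

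The LPS responses of Ncf4 were 1.05 ± 0.30 in WT (2.07-fold, adjusted p 0.0149), 0.94 ± 0.30 in KO (1.92-fold, 0.0281) and 1.00 ± 0.30 in 3′F (2.0-fold, 0.0186). Between genotypes its differences lay between −0.16 and 0.10, and their 95% intervals together ran from −0.79 to 0.73. Changes within these limits are therefore not excluded. The WT call was lost without WT replicate 1 with LPS or resting WT replicate 2 or 3 (adjusted p up to 0.0728). The KO call was lost without KO replicate 1 or 2 with LPS or resting KO replicate 1 or 2 (up to 0.115). The 3′F call was lost without 3′F replicate 1 or 3 with LPS or resting 3′F replicate 2 (up to 0.0685), and in a fit of the 3′F libraries alone (0.0606). Responses stayed between 0.73 and 1.36 in those 18 fits.

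Rac2 (ENSMUSG00000033220, chromosome 15, 78559167 to 78572783, minus strand) held 87.0, 153 and 126 CPM in resting WT and 266, 242 and 244 with LPS. In KO it held 101, 93.6 and 128 CPM at rest and 267, 243 and 255 with LPS. In 3′F it held 118, 90.3 and 70.2 CPM at rest and 263, 220 and 317 with LPS. Every LPS library of any genotype lay above every resting library. The responses were 1.04 ± 0.20 in WT (2.05-fold, adjusted p 0.00135), 1.24 ± 0.21 in KO (2.37-fold, 0.000298) and 1.51 ± 0.21 in 3′F (2.86-fold, 5.7e-05), and they passed in each of the 24 other fits. Between KO and WT the difference of Rac2 was −0.18 ± 0.20 at rest (95% interval −0.61 to 0.25, adjusted p 0.655). With LPS it was 0.02 ± 0.20 (−0.40 to 0.45, 0.973). Neither difference was called, and changes within these limits are not excluded. The part of the seed 6mers shown above was not tested.

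Ncf4 and Rac2 lie 296.6 kb apart on chromosome 15. The table holds 10 genes between them, of which 6 were tested and 3 were called in the LPS response of WT. Csf2rb and Csf2rb2, the β chains of the GM-CSF and IL-3 receptors, rose by 1.75 ± 0.26 (adjusted p 0.000138) and 1.47 ± 0.29 (0.00141), and Tst, a mitochondrial sulfurtransferase, fell by 1.28 ± 0.35 (0.0126). Csf2rb and Csf2rb2 are near-identical copies, so their separate counts are uncertain.

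Cultures of one mouse give the LPS response mouse by mouse, as a log2 difference in level, shown here as a description. For Cybb it was 2.08, 2.23 and 1.96 in the WT mice, 1.502, 1.802 and 1.122 in the KO mice and 1.88, 2.04 and 2.13 in the 3′F mice. Every KO mouse lay below every WT and 3′F mouse, and the KO mouse with the smallest value is the one whose resting library stood apart. That KO mouse also gave the smallest KO values for Cyba, 0.32 against 0.44 and 0.74, and for Ncf1, −0.27 against 0.15 and 0.36. The same held for Ncf4, 0.30 against 1.19 and 1.46, and for Rac2, 0.99 against 1.40 and 1.38. The 3′F mouse of the length-shifted resting library gave −0.67 for Cyba against 0.54 and 0.44, and 2.17 for Rac2 against 1.15 and 1.28.

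The 5 transcripts together made up 2268 to 2802 CPM in resting WT and 6927 to 8246 with LPS. In resting KO they made up 3532 to 5252 CPM and with LPS 8514 to 9815, and in 3′F 2790 to 3168 at rest and 7551 to 8285 with LPS. The KO ranges lay above those of WT and 3′F in both states, and Cybb, the most abundant member by CPM, exceeded each other member in every library.

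Counted together, 3 of the 5 members passed in the LPS response of WT (Cybb, Ncf4 and Rac2), all higher, where 28.5% of all genes tested were called and 16.3% were called higher. In KO the same 3 members passed (26.9% of all genes, 14.3% higher), and in 3′F 4 members passed, with Ncf1 added (31.2%, 17.2% higher). The median response of the members was 1.04 in WT, 0.94 in KO and 1.00 in 3′F, and that of all genes tested 0.02, 0.02 and −0.01. For resting KO against WT 2 of 5 members passed, both higher (9.4% of all genes, 5.12% higher), and with LPS 1 of 5 (4.79%, 1.89% higher). The member medians were 0.15 and 0.08 against 0.02 and 0.01 for all genes.

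No member passed between 3′F and WT, at rest (0% of all genes called) or with LPS (0.00881%). At an unadjusted p under 0.05 there was 1 member at rest, Cyba with 0.53 ± 0.23 (557 of all 11357 genes), and 0 with LPS (106 of all genes). At the adjusted threshold DESeq2 and limma-voom likewise called 0 members. The difference for Cyba was 0.09 without resting 3′F replicate 3. With LPS the 5 differences ran from −0.04 to 0.09, and their 95% intervals together from −0.58 to 0.68. In the comparison with 3′F, which uses the same KO libraries, KO was higher at rest for Cybb, by 0.81 ± 0.18 (adjusted p 0.0112), and for Ncf1 (12.9% of all genes called, 6.79% higher). With LPS it was higher for Ncf1 (3.88%, 1.51% higher). In fits of the resting KO and 3′F libraries alone neither resting call remained, with adjusted p of 0.178 for Cybb and 0.135 for Ncf1. Few genes of any kind were called there, 16 of 10944, where the reported fit called 1464 of 11357. In the interactions of LPS with KO (0.00881% of all genes) and with 3′F (0%) 0 members passed here or in the 24 other fits. At an unadjusted p under 0.05 there was 1, Cybb with KO, where 560 of all 11357 genes reached it.

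**Figure D3:**
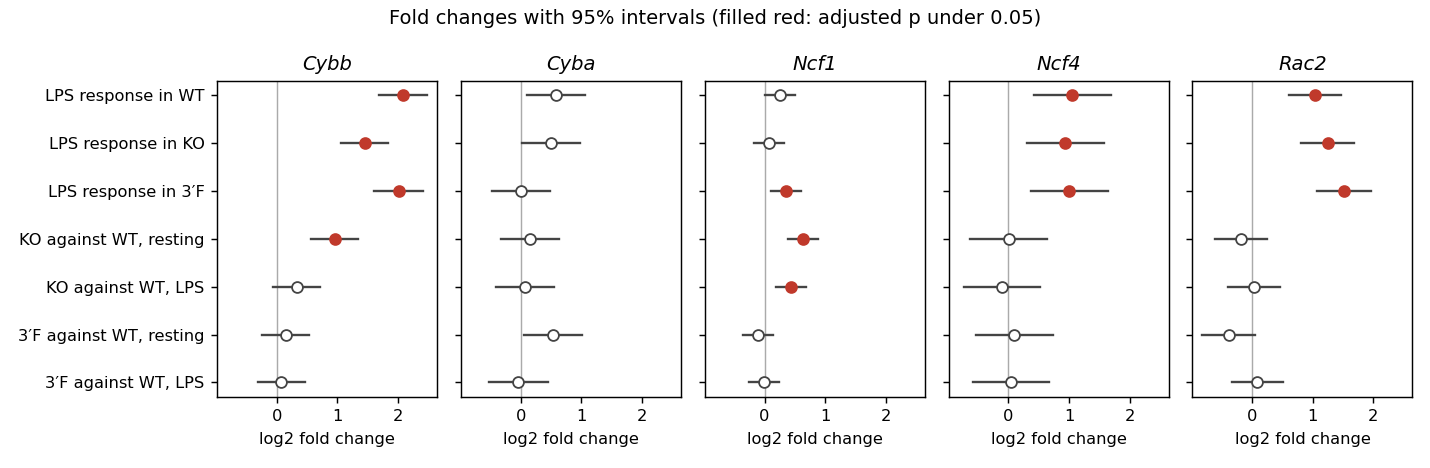
Log2 fold changes of the 5 members in 7 comparisons, with 95% intervals from the edgeR fit of all 18 libraries; filled red points have an adjusted p under 0.05. Cybb, Ncf4 and Rac2 pass in every genotype with LPS, Cybb and Ncf1 pass in resting KO against WT, and no point passes in 3′F against WT.

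The order of the transcripts per kb of exon changed with LPS. In resting WT Cyba stood highest with 700 CPM per kb, followed by Cybb with 277, Ncf1 with 150, Ncf4 with 148 and Rac2 with 40.2, and only the ranges of Ncf1 and Ncf4 overlapped among neighbours. With LPS Cybb stood at 1170 and Cyba at 1045 CPM per kb, with overlapping ranges, and Ncf4 with 306 lay above Ncf1 with 179 and Rac2 with 82.6, without overlap. In resting KO the order was that of resting WT, with Cyba at 779, Cybb at 538, Ncf1 at 233, Ncf4 at 148 and Rac2 at 35.5 CPM per kb. Rac2 was the lowest of the 5 in every group. Rac1, the broadly expressed paralog of Rac2, stood at 44.1 CPM per kb in resting WT and 46.9 with LPS (log2 difference in level 0.09 ± 0.22, adjusted p 0.804).

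The genes nearest to each member over the 18 libraries were found by the root mean square difference between centred log2 CPM, which also grows with the spread of the genes compared. The nearest were Ikbke, Slc15a3 and Agtrap for Cybb (0.15 to 0.18, where Cybb itself varied with an SD of 1.00), and Med10, Ostf1 and Derl2 for Cyba (0.08 to 0.11, SD 0.34). For Ncf1 they were Pld4, Ptk2 and Fbxo7 (0.13 to 0.14, SD 0.31), for Ncf4 Fam162a, Psma6 and Esd (0.24 to 0.26, SD 0.62) and for Rac2 Ccnd3, Kif3c and Fth1 (0.23 to 0.24, SD 0.69). These are descriptions over libraries that share the LPS contrast.

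Genes that assemble and regulate the oxidase moved mostly upward with LPS. Of 22 such genes, all tested, 15 were called in WT, 13 higher and 2 lower (28.5% of all genes called), with a list median of 0.46 against 0.02 for all genes. In KO and in 3′F 16 were called, 14 higher and 2 lower in each (26.9% and 31.2% of all genes). Hvcn1, the proton channel that balances the charge the oxidase moves, went from 98.6 ± 8.30 to 263 ± 33.2 CPM in WT (1.41 ± 0.19, adjusted p 5.19e-05), and Pik3cd, a leukocyte PI3-kinase subunit, rose by 1.06 ± 0.23 (0.00267). Dock2, a guanine nucleotide exchange factor for Rac, fell by 0.70 ± 0.11 (0.00029). Vav3, another Rac exchange factor, fell by 0.66 ± 0.23 (0.041), a call that was lost without any 1 of the 6 WT libraries, KO replicate 3 with LPS or 3′F replicate 1 or 3 with LPS.

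In resting KO against WT 3 of the 22 were called, all higher (9.4% of all genes called, list median 0.22). They were Prex1, a Rac exchange factor, at 148 ± 24.3 CPM in WT and 210 ± 26.0 in KO (0.51 ± 0.14, adjusted p 0.0352), BC017643, the table's name for Cybc1, the chaperone needed for the Cybb and Cyba proteins, at 60.2 ± 6.73 and 85.4 ± 4.10 CPM (0.50 ± 0.12, 0.0129), and Prkcd, a kinase that phosphorylates Ncf1 (0.40 ± 0.12, 0.047). Without resting KO replicate 3 the BC017643 difference was 0.46 (adjusted p 0.0356), and its call was lost without resting WT replicate 2 or 3. Prex1 was lost without resting WT replicate 1 or 2, resting KO replicate 1 or 3 or KO replicate 1 with LPS (adjusted p up to 0.156). Prkcd was lost in all but 3 of the 18 fits that left out 1 library, those without KO replicate 2 with LPS or resting 3′F replicate 2 or 3 (up to 0.147). Prex1 was the 1 gene of the 22 called with LPS, where 4.79% of all genes were called (0.56 ± 0.14, 0.0327), and this call was lost without any 1 of the 6 WT and KO libraries with LPS.

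Of 27 genes that handle oxidants or supply NADPH 26 were tested, and in WT with LPS 15 were called, 14 higher and 1 lower (28.5% of all genes), with a list median of 0.72. In KO 12 were called, 8 higher and 4 lower (26.9% of all genes), and in 3′F 14, of which 12 were higher (31.2%). Sod2, the mitochondrial superoxide dismutase, went from 170 ± 33.6 to 2154 ± 142 CPM in WT (3.67 ± 0.21, adjusted p 8.91e-09), and Prdx5, a peroxiredoxin, from 319 ± 75.3 to 1837 ± 366 CPM (2.52 ± 0.34, 4.75e-05). Idh1, a cytosolic source of NADPH, fell by 0.75 ± 0.21 (0.014), and the call was lost without resting WT replicate 1 (adjusted p 0.07) or WT replicate 3 with LPS (0.0513).

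In resting KO against WT 4 of these 26 were called (9.4% of all genes). Sod2 was higher at 408 ± 142 CPM (1.27 ± 0.19, adjusted p 0.00158, and 0.94 with adjusted p 0.00167 without resting KO replicate 3), and Prdx4, a peroxiredoxin of the endoplasmic reticulum, was lower at 62.1 ± 3.25 CPM against 118 ± 14.6 (−0.93 ± 0.17, 0.00409). Prdx5 was higher by 1.24 ± 0.32 (0.0241) and Nqo1, a quinone reductase, by 2.14 ± 0.60 (0.0332). Both rested on resting KO replicate 3, without which they were 0.69 (adjusted p 0.124) and 0.45 (0.348): Nqo1 held 8.84, 11.2 and 78.3 CPM in resting KO and 7.23, 7.45 and 7.16 in resting WT. The Prdx5 call was also lost without resting WT replicate 2 or 3 and the Nqo1 call without any 1 of the resting WT libraries (adjusted p up to 0.113). With LPS 1 of the 26 was called (4.79% of all genes), Cat, the catalase gene, at 142 ± 24.8 CPM in KO and 231 ± 37.6 in WT (−0.70 ± 0.17, 0.0243). That call was lost without WT replicate 2 with LPS or KO replicate 1 or 2 with LPS (adjusted p up to 0.143).

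**Figure D4:**
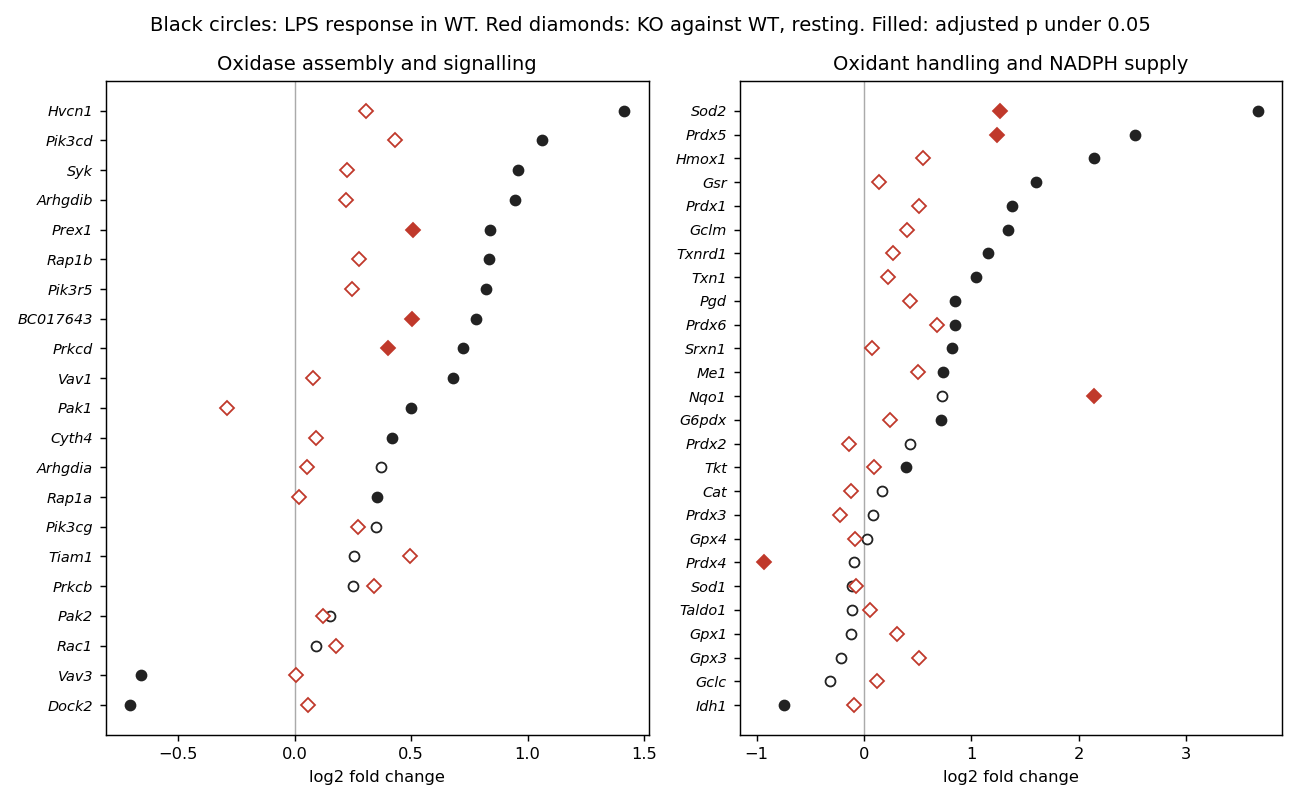
Log2 fold changes of tested genes of both lists, 1 gene left out, ordered by their LPS response in WT (black circles), with resting KO against WT beside it (red diamonds); filled symbols have an adjusted p under 0.05. The comparisons share the resting WT libraries. Hvcn1 and Sod2 lead their lists with LPS, and Nqo1, at 2.14 in resting KO, rests on 1 library.

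Of 9 genes of other NADPH oxidases, 7 fell below the filter and Nox1 and Noxo1 were tested. Nox1, a homolog of Cybb, held 0.79, 0.53 and 0.68 CPM in resting WT and 3.14, 4.98 and 4.76 with LPS, a rise of 2.67 ± 0.45 (adjusted p 0.000399), and was called in KO (2.96 ± 0.47) and 3′F (3.10 ± 0.49) too. At 2.52 to 5.23 CPM with LPS its level per kb was 0.76 to 1.58 CPM, against 1042 in the lowest Cybb library with LPS. Noxo1, the organizer that Nox1 uses in place of Ncf1, was called in the LPS response of KO (1.05 ± 0.36, adjusted p 0.0389). With LPS it held 3.79, 3.69 and 4.49 CPM in KO and 1.19, 1.91 and 1.98 in WT, a difference of 1.23 ± 0.36 that had an adjusted p of 0.0583.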

How the data were processed

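RNA of BMDMs was sequenced in 18 libraries from 3 mice per genotype, in 6 groups of 3 libraries. The authors depleted rRNA, made directional libraries, trimmed reads with cutadapt 1.8.3, aligned them to mm10 with HISAT2 2.1.0 and counted reads of high mapping quality per Gencode gene and by strand with featureCounts 1.5.3, and the deposited values are raw counts per gene with an exon length. Strand-aware counting separates antisense genes. Lengths were used for levels per kb.

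Counts were filtered with filterByExpr and fitted with edgeR 4.0.16 in R 4.3.3 (TMM, quasi-likelihood, 6 group means, no covariate), all tests being two-sided. SE is the log2 fold change divided by the square root of F, and genes were called at an adjusted p under 0.05. Levels are means ± SD of TMM-scaled CPM. Intervals cover the spread between these libraries. The procedure was also run on simulated counts with known changes in WT with LPS. These counts held no pairing by mouse and no length-shifted library, so the run cannot speak to those features. Alternatives were DESeq2 1.42.0, its size factors in edgeR, no filter, the compared groups alone, a replicate block (the mouse for LPS responses and interactions, the number between genotypes), limma-voom (limma 3.58.1) with quality weights, and leaving out each library.

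Resting and LPS cultures of the same genotype and number were taken as cultures of 1 mouse, since the labels give 3 mice a genotype and their columns share a letter. Their deviations from the group means correlated by −0.015 to 0.386. Across genotypes the labels give a number no shared meaning.

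The members and lists were chosen with earlier results of these data known. Genes of the lists were named by size of change among called genes with an average log2 CPM of at least 1, up to 2 per direction. Prkcd, Prdx5 in resting KO, Nox1, Noxo1 and Rac1 were named after their values were seen. 1 gene of the list of assembly and signalling is counted in its totals and not reported here.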

Additional observations from a re-analysis of the deposited data

How the results depend on the processing

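Of the 55 values of the 5 members over 11 comparisons, 16 were called and 0 of those changed sign under the 24 alternatives. 10 of the 16 calls were lost under at least 1 of them, and 5 uncalled values passed under at least 1. Of the 39 uncalled values 19 changed sign somewhere, and none exceeded 0.32 in size when it did. The count of members called with LPS was 5 in WT and 5 in KO with quality weights in limma-voom, where 5218 and 6073 of all 11357 genes were called. With the compared groups alone the member count was 2 for LPS in 3′F, 0 for resting KO against WT and 0 for resting KO against 3′F. Those fits called 2474 of 11023, 396 of 10851 and 16 of 10944 genes. For KO against WT and against 3′F with LPS the member count was 0 without a filter and 0 with a replicate block. Without a filter 552 and 442 of 19883 genes were called there, and with the block 579 and 433 of 11357. Leaving out 1 library gave 2 to 4 members for LPS in 3′F and 0 to 1 for KO against WT or 3′F with LPS.

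For the list of assembly and signalling, resting KO against WT gave 1 gene without a filter, 0 with the compared groups alone, 1 with the replicate block and 5 with quality weights. Over all genes these fits called 985 of 19883, 396 of 10851, 963 of 11357 and 2259 of 11357. Leaving out 1 library gave 0 (without resting WT replicate 2) to 4, and 1 without resting WT replicate 1 or 3, resting KO replicate 1 or 3, or KO replicate 1 with LPS. With LPS the same list gave 4 genes in DESeq2, 0 without a filter, 2 with the compared groups alone, 2 with the replicate block, 5 with quality weights and 0 to 4 on leaving out 1 library. Over all genes DESeq2 called 983 of 11357, the fit without a filter 552 of 19883 and the compared groups alone 1031 of 10903. The replicate block called 579 of 11357 and quality weights 1777 of 11357. For oxidant handling, quality weights called 19 genes for LPS in KO (6073 of all 11357), where leaving out 1 library gave 8 to 17. Resting KO against WT gave 2 with the compared groups alone and 2 to 6 on leaving out 1 library. With LPS it gave 3 genes in DESeq2, 4 with the compared groups alone, 6 with quality weights and 0 to 2 on leaving out 1 library. The cause of these changes was not tested. For the members, the replicate block changed no call other than those of Ncf1 given above. With 3 libraries a group, the intervals printed give the range of differences that these data do not exclude.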
